A study of Mus musculus with 2 samples.

Results

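The nuclear genes for subunits of respiratory chain complexes I to IV and of ATP synthase, complex V, were examined in CH12.LX, an established mouse B cell lymphoma line. Members were the protein-coding genes of the GENCODE M21 annotation whose symbols begin with Nduf and a letter a, b, c, s or v before a digit, with Cox4 to Cox8, with Uqcr or with Atp5, together with Sdha, Sdhb, Sdhc and Sdhd. This symbol pattern found 85 protein-coding genes in M21, and 84 of them are among the 43346 genes of the M4 gene table, of which 21474 are protein-coding. The other one, a second locus named Atp5o, was not analysed here. By textbook composition, 35 members belong to complex I, 4 to complex II, 8 to complex III, 20 to complex IV and 17 to complex V.

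The respiratory chain passes electrons from NADH and succinate to oxygen and pumps protons across the inner mitochondrial membrane, and ATP synthase uses the return of those protons to make ATP. Each complex except complex II joins subunits from nuclear genes with subunits from the mitochondrial genome, so that its assembly draws on both. Several complex IV subunits have a common form and a second form that is restricted to heart and skeletal muscle, to testis or to low oxygen, and the mature c subunit of ATP synthase is encoded by several genes.

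Total RNA was sequenced in 2 libraries, labelled biological replicates 1 and 2, of 1 group of CH12.LX cells with no treatment named, from a mouse strain labelled B10.H-2aH-4bp/Wts, and each library has its own biosample record. Nothing more is given on how the cultures were grown, so the spread between the libraries may be partly technical. There is no second condition, and the only comparison between samples is library against library, with no p-values. Levels are TPM, a measure of transcript abundance that divides by length, and ratios use scaled counts.

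Replicate 2 had 55950529 expected counts and replicate 1 had 49278383. Protein-coding genes held 24.3% ± 0.0964 of TPM (SD, n = 2), so subunit genes read lower than they would with TPM of mRNA alone. All 8 B cell markers checked were detected, among them Cd79b, a chain of the B cell receptor, at 125 TPM in replicate 2 against 121 TPM in replicate 1. In bulk RNA, fewer cells that express a gene and less RNA per cell cannot be told apart.

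Most subunit genes were expressed at high levels. At 1 TPM or more in each library, 76 of 84 members were detected, or 90.5%, against 41.4% of all protein-coding genes. At 10 TPM or more in each library the counts were 74 of 84 members, or 88.1%, against 14.5% of all protein-coding genes. The median member was at 58.1 TPM, and the median detected member at 62.4 TPM, against 6.67 TPM for the median detected protein-coding gene. Together the members held 2.62% of protein-coding TPM in replicate 2 and 2.73% in replicate 1. As a share of protein-coding counts they held 1.31% in replicate 2 and 1.37% in replicate 1. TPM divides by length, and the members are short, with a median of 712 bases against 2326 bases for detected protein-coding genes.

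**Figure D1:**
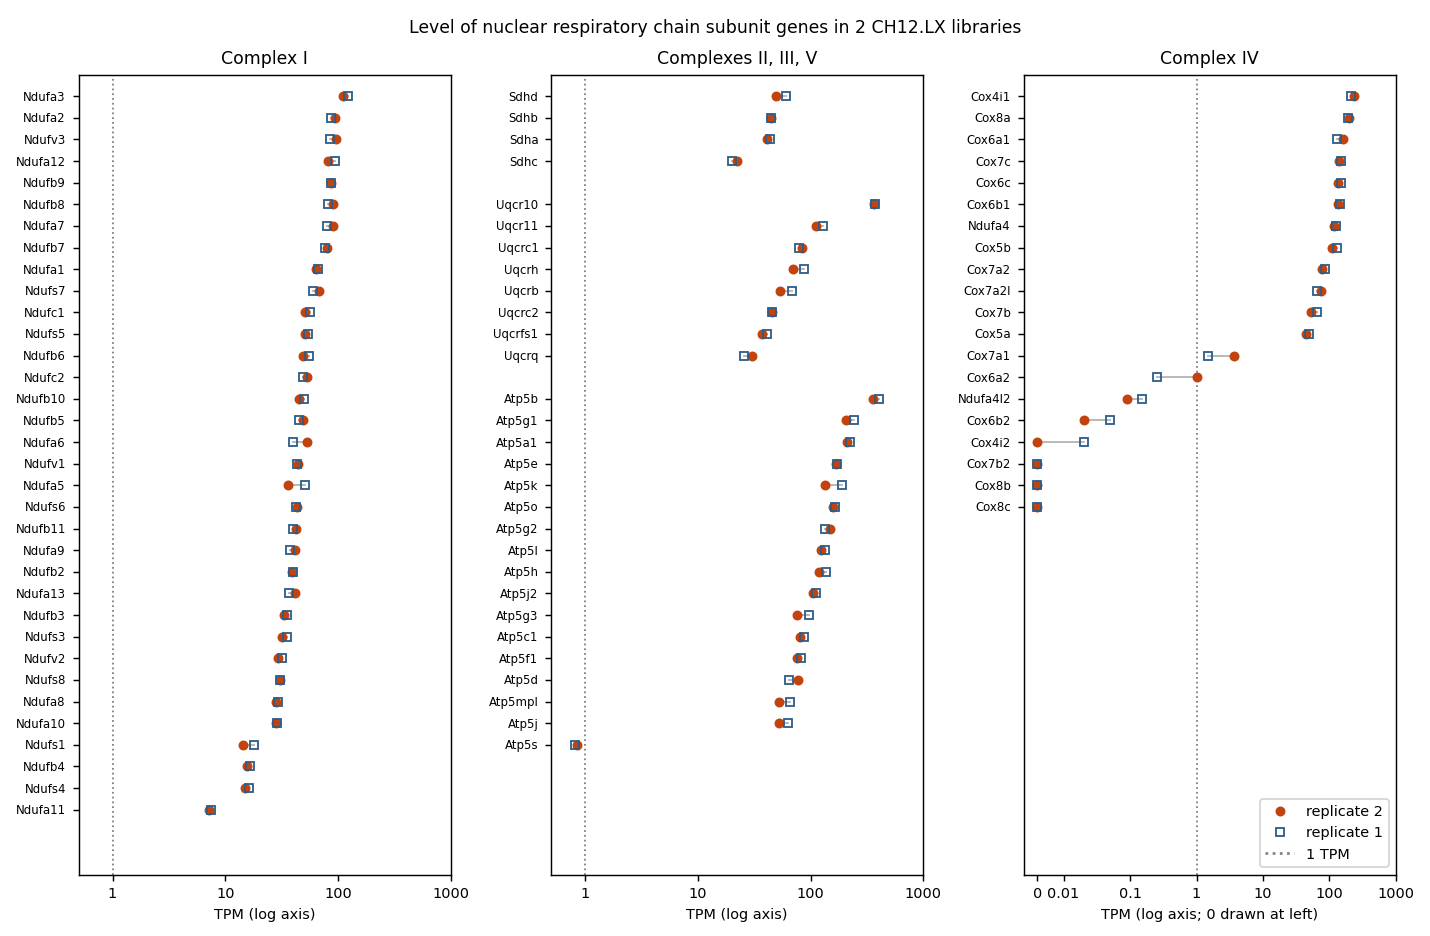
TPM on a log axis of subunit genes, with replicate 2 as filled circles and replicate 1 as open squares, grouped by complex and ordered by mean; the dotted line is 1 TPM, and values of 0 are drawn at the left edge of the complex IV panel. Genes of complexes I, II, III and V lie to the right of the line except Atp5s, while the 8 restricted forms of complex IV run from Cox7a1, just right of it, down to 0.

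The complexes differed in the level of their median member. Complex V had the highest median, 127 TPM, followed by complex III at 69.9 TPM, complex IV at 64.4 TPM, complex I at 46.4 TPM and complex II at 43.5 TPM. The complex IV median covers all 20 members, and over its 13 detected members it was 122 TPM. Across libraries the complex medians had an SD of 10.5 TPM for complex V, 8.76 TPM for complex III, 0.997 TPM for complex IV, 0.527 TPM for complex II and 0.113 TPM for complex I. The order of complexes III and IV was reversed in replicate 2, where complex III was at 61.6 TPM and complex IV at 63.7 TPM, against 74.0 and 65.1 TPM in replicate 1. The order of the medians was not tested.

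All 35 complex I members were detected. Complex I, the NADH dehydrogenase, has a core of catalytic subunits that are also found in bacteria and a shell of accessory subunits. The 7 nuclear core genes had a median of 33.3 TPM, and the 28 accessory genes a median of 47.2 TPM. Core genes were also longer, with a median of 1307 bases against 653 bases, and the part of length in this difference was not tested. Among core genes, Ndufs7, which carries the iron-sulfur cluster next to the quinone site, was at 67.3 TPM in replicate 2 against 59.8 TPM in replicate 1. Ndufv1, which binds FMN and NADH, was at 44.4 TPM in replicate 2 against 43.6 TPM in replicate 1. The core gene with the lowest level was Ndufs1, the large iron-sulfur subunit, at 14.3 TPM in replicate 2 against 18.0 TPM in replicate 1. Further core genes, the iron-sulfur subunits Ndufv2 and Ndufs8 and the peripheral arm subunit Ndufs3, had means from 30.4 to 33.3 TPM. Core genes therefore spanned 16.1 to 63.5 TPM in their means, all within the range of the accessory genes.

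The highest complex I genes were accessory. Ndufa3, a small membrane arm subunit, was at 111 TPM in replicate 2 against 121 TPM in replicate 1. Ndufa2, a matrix arm subunit with a thioredoxin-like fold, was at 94.5 TPM in replicate 2 against 87.4 TPM in replicate 1. Ndufv3, a matrix arm subunit with alternatively spliced forms, was at 96.7 TPM in replicate 2 against 84.5 TPM in replicate 1. Ndufa2 and Ndufv3 changed places between the libraries. Ndufa12, which takes the place of an assembly factor late in assembly, was at 81.9 TPM in replicate 2 against 94.8 TPM in replicate 1. Ndufb9 and Ndufb8, membrane arm subunits, had means of 86.4 and 85.8 TPM.

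At the low end stood Ndufa11, Ndufs4 and Ndufb4. Ndufa11, a membrane arm subunit at the contact with complex III in supercomplexes, was at 7.10 TPM in replicate 2 against 7.51 TPM in replicate 1, the only complex I gene under 10 TPM. Its counts, 2140 in replicate 2 and 2076 in replicate 1, were above those of Ndufc1 and Ndufs6, which stood at higher TPM. The M4 table gives its transcript Ndufa11-201 a length of 2661 bases, against 545 bases for that transcript in M21, and TPM divides by that length. Ndufs4, an accessory subunit whose loss causes a Leigh-like disease in mice, was at 14.9 TPM in replicate 2 against 16.1 TPM in replicate 1. Ndufb4, a membrane arm subunit, was at 15.7 TPM in replicate 2 against 16.5 TPM in replicate 1.

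Ndufb4 shares its coding sequence with a processed pseudogene, Ndufb4c. Ndufb4 lies on chromosome 16 and Ndufb4c on chromosome 15, and the 390 bases of Ndufb4c equal the Ndufb4 coding sequence at every position. The first 150 bases of the coding sequence are shown because a read inside them cannot be placed at one locus by its letters; all stand in lower case since no base differs.
Ndufb4 and Ndufb4c: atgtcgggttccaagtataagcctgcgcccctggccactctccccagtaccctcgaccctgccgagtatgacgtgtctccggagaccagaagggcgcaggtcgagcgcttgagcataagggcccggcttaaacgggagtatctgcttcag
The deposited estimates gave Ndufb4c 78.4 TPM in each library, with 2122 counts in replicate 2 and 2003 in replicate 1. They gave Ndufb4 1481 counts in replicate 2 and 1462 in replicate 1. Copies thus held 58.4% ± 0.777 of the joint counts. With all these counts placed on Ndufb4 at its own length, it would stand at 38.2 TPM in replicate 2 against 39.0 TPM in replicate 1, an upper limit, and its own value is uncertain. How reads were split between such loci is not given in the sources used here.

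Near copies of this kind touched few other members. By alignment of transcripts, 23 of 84 members had 44 pseudogene copies elsewhere in the genome at 95% identity or more over at least 100 bases, and 16 of the 44 copies had 0 counts in both libraries. All copies together held 1.79% ± 0.182 of the joint counts of all 84 members and the copies, so members without a copy are in this base. Besides Ndufb4, copies held 5% or more for Atp5g2, Atp5l and Cox7c. For Atp5g2 the share was 31.1% ± 2.14, all from Gm10175 on chromosome 7, which is identical over 645 bases. For Atp5l it was 19.7% ± 0.598 over 9 copies. Of these copy counts, Gm10499, an unprocessed pseudogene on chromosome 17 that aligns over 153 bases only, held 1038 of 1287 in replicate 2 and 917 of 1244 in replicate 1. Many protein-coding genes, such as Nop58 and Eapp over 186 bases each, also aligned with Atp5l. The 19.7% and the 1.79% may therefore include counts from a locus that is not a copy of Atp5l. For Cox7c the share was 8.0% ± 0.710. Its highest copy, Gm12338, identical over 192 bases, was listed at 172 TPM in replicate 2 against 135 TPM in replicate 1. The values of these 4 members are uncertain, since reads may be split between a member and its copies.

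All 4 complex II genes were detected. Complex II, succinate dehydrogenase, is also an enzyme of the citric acid cycle. Sdha, the flavoprotein that oxidises succinate, was at 41.4 TPM in replicate 2 against 43.6 TPM in replicate 1. Sdhb, the iron-sulfur subunit, was at 44.9 TPM in replicate 2 against 44.3 TPM in replicate 1. These catalytic subunits stood at nearly the same level in both libraries. The membrane anchors did not: Sdhd was at 49.4 TPM in replicate 2 against 60.6 TPM in replicate 1, and Sdhc was lower, at 22.2 TPM in replicate 2 against 20.02 TPM in replicate 1. The anchors did not overlap each other in level, while the catalytic subunits lay between them.

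All 8 complex III genes were detected. Complex III, the cytochrome bc1 complex, passes electrons from ubiquinol to cytochrome c. Uqcr10, a small subunit near cytochrome c1 (chromosome 11, 4701973 to 4704342), was at 364 TPM in replicate 2 against 371 TPM in replicate 1. Uqcr11, another small subunit, was at 112 TPM in replicate 2 against 128 TPM in replicate 1. Uqcrc1, a core protein related to the mitochondrial processing peptidase, was at 84.04 TPM in replicate 2 against 78.9 TPM in replicate 1. The small subunits ranged widely, since Uqcrq, another of them, had the lowest level of the complex at 30.4 TPM in replicate 2 against 25.9 TPM in replicate 1. Uqcrfs1, the Rieske iron-sulfur protein, was at 36.7 TPM in replicate 2 against 41.2 TPM in replicate 1. Uqcrc2, the other core protein, was at 45.3 TPM in replicate 2 against 45.2 TPM in replicate 1. Uqcrh, the hinge protein, had a mean of 78.5 TPM and Uqcrb, a small subunit on the matrix side, a mean of 61.3 TPM.

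Complex IV, cytochrome c oxidase, fell into expressed and silent genes. The 7 common forms had a median of 139.6 TPM, the 4 subunits with a single form a median of 131 TPM and the 8 restricted forms a median of 0.0225 TPM. Cox4i1, the largest nuclear subunit, was at 231 TPM in replicate 2 against 214 TPM in replicate 1. Cox8a, a small membrane subunit, was at 197 TPM in replicate 2 against 193 TPM in replicate 1. Cox6a1 was at 161 TPM in replicate 2 against 132 TPM in replicate 1. Cox6b1, on the side that faces cytochrome c, was at 136 TPM in replicate 2 against 144 TPM in replicate 1. Ndufa4, first placed in complex I and now counted with complex IV, was at 117 TPM in replicate 2 against 127 TPM in replicate 1. Cox7a2 was at 78.2 TPM in replicate 2 against 85.0 TPM in replicate 1, and Cox7b, the lowest common form, at 53.4 TPM in replicate 2 against 66.1 TPM in replicate 1. Every common form thus stood above 50 TPM in both libraries. Among the single forms, Cox7c had a mean of 146 TPM, Cox6c a mean of 141 TPM, Cox5b, a zinc-binding subunit, was at 109 TPM in replicate 2 against 131 TPM in replicate 1, and Cox5a was the lowest with a mean of 46.9 TPM. The value of Cox5b depends on the annotation, since its mean was 188 TPM with M2. Cox7a2l, a factor that joins complex IV to complex III in supercomplexes, had a mean of 69.0 TPM.

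The restricted forms were at or near 0. Together they held 0.490% of the TPM of their 7 families in replicate 2 and 0.205% in replicate 1, a mean of 0.347% ± 0.202. Cox7a1, the heart and skeletal muscle form of subunit 7a, was the only one detected, at 3.67 TPM in replicate 2 against 1.5 TPM in replicate 1, from 88 and 34 counts. It held 4.48% of the TPM of Cox7a1 and Cox7a2 in replicate 2 and 1.74% in replicate 1. Without this family, the restricted forms held 0.0893% of the TPM of the other 6, so Cox7a1 alone gives most of the summed share. Cox6a2, the heart and muscle form of subunit 6a, was at 1.01 TPM in replicate 2 against 0.25 TPM in replicate 1, from 60 and 14 counts, and missed the 1 TPM minimum in replicate 1 alone. Itgad overlaps Cox6a2 on the opposite strand and had 1 count in replicate 2 and 2 counts in replicate 1.

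Ndufa4l2, which low oxygen induces in other cells, was at 0.09 TPM in replicate 2 against 0.15 TPM in replicate 1, from 9 and 13 counts. It overlaps Shmt2 on the opposite strand, which was at 64.4 TPM in replicate 2 against 50.2 TPM in replicate 1, and since the use of strand in the counting is not given in the sources used here, these few counts are uncertain. Cox4i2, the form of lung and low oxygen, was listed at 0 TPM in replicate 2 against 0.02 TPM in replicate 1. Cox6b2, a testis form, had 1 count in replicate 2 and 2 counts in replicate 1. Its listed TPM lay below its own deposited credibility bounds in both libraries. Cox8b, a heart, muscle and brown fat form, Cox8c, a testis form, and Cox7b2 had 0 counts in both libraries. A count of 0 allows up to 3 counts, which is 0.127 TPM in replicate 2 against 0.134 TPM in replicate 1 for Cox8b, and 0.0801 and 0.0856 TPM for Cox8c.

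**Figure D2:**
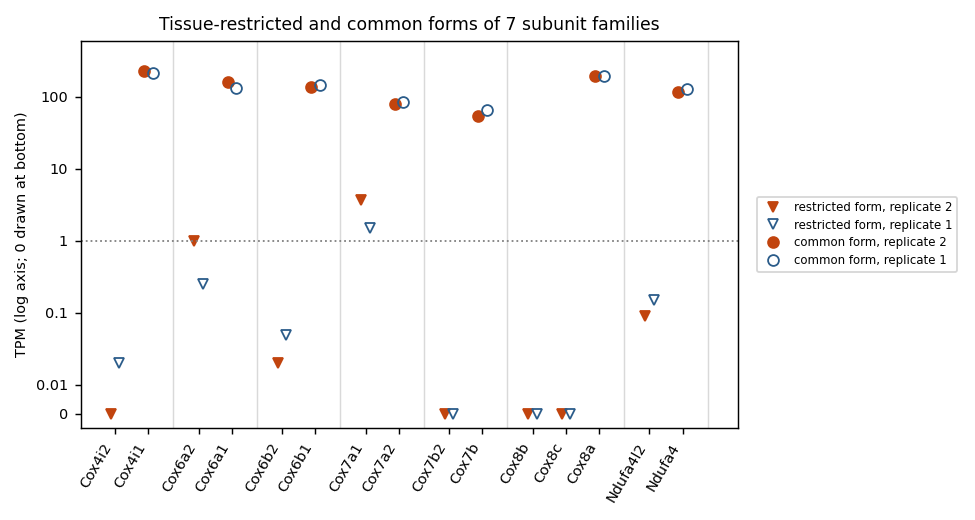
TPM on a log axis of restricted forms (triangles) and common forms (circles) of 7 families, with replicate 2 filled and replicate 1 open; the dotted line is 1 TPM, and values of 0 are drawn at the bottom. All common forms stand above 50 TPM in both libraries, and Cox7a1 is the only restricted form above the line in both.

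Markers of the tissues that use the restricted forms were mostly not detected. Of 10 striated muscle markers, 1 was detected, Tnnt2, at 2.08 TPM in replicate 2 against 1.34 TPM in replicate 1. The summed TPM of the 10 was 4.0 in replicate 2 and 2.61 in replicate 1, of which Ttn, the giant sarcomere protein, made up 0.98 TPM in replicate 2 and 0.81 TPM in replicate 1. Actn2, Mb and Myl1 were listed at 0 TPM in both libraries, while Tnnt3, a fast muscle troponin, was at 0.75 TPM in replicate 2 against 0.36 TPM in replicate 1. Of 8 testis markers, 0 were detected. Cox7a1, Cox6a2 and the summed muscle markers were all higher in replicate 2, and the part of such cells or transcripts in the levels of Cox7a1 and Cox6a2 was not tested.

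The promoters of the members were searched for known motifs. A window of 300 bases, 250 before and 50 from the RefSeq start on GRCm38.p6, was on hand for 66 members. The median detected member had 19 CpG sites in it (63 members), against 22 for detected protein-coding genes and 14 for all protein-coding genes. For the Cox7a pair and for Cox8a with Cox8b, the first 280 bases of the window are shown as examples of an expressed and a low or silent form. Capitals mark a motif searched on both strands, GGGCGG (SP1) in Cox7a2, CCGGAAG (ETS factors such as GABP) read on the other strand in Cox8a, and TATAAA (the TATA box) in Cox8b, and Cox7a1 held none of those searched.
Cox7a1, chr7:30183921-30184200, plus strand: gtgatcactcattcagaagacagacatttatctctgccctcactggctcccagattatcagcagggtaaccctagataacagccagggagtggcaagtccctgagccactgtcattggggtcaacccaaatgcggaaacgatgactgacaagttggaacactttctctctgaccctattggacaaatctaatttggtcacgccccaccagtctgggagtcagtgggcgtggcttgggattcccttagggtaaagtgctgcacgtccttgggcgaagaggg
Cox7a2, chr9:79759824-79760103, minus strand: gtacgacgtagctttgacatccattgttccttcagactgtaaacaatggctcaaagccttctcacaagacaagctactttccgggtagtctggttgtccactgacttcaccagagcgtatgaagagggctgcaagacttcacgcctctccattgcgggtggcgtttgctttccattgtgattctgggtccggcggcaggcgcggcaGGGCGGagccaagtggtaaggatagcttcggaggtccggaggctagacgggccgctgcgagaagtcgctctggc
Cox8b, chr7:140900417-140900696, minus strand: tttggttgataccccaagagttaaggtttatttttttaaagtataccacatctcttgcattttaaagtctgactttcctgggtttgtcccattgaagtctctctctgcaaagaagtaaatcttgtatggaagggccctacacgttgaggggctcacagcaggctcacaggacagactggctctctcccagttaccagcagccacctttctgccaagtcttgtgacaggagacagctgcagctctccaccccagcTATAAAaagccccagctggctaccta
Cox8a, chr19:7217587-7217866, minus strand: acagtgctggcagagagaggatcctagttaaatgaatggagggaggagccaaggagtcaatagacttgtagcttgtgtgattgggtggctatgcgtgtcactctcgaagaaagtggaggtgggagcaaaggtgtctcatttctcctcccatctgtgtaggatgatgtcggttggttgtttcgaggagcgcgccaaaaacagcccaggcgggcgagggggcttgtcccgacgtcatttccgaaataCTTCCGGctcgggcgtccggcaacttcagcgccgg
Cox7a1 had 7 CpG sites in its window against 20 for Cox7a2, and Cox8b had 2 against 19 for Cox8a. Not every common form was rich in CpG, since Cox7b had 5, fewer than the 10 of its restricted partner Cox7b2. Cox6b2, the other restricted form with a window, had 10 against 17 for Cox6b1.

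The motif GCGCANGCG, a core of NRF1 binding, stood in 30.2% of the 63 windows of detected members, against 16.5% of 7135 detected protein-coding genes and 9.30% of 16317 protein-coding genes. AANATGGC, a core of YY1 binding, stood in 22.2% of members, against 10.5% of detected genes and 6.78% of all. CCGGAAG stood in 23.8% of members, against 22.7% of detected genes and 12.4% of all. GGGCGG stood in 38.1% of members, against 67.2% of detected genes and 48.4% of all. TCAAGGTCA, a site of the ERR receptors, stood in 2 of the 63 windows, those of Atp5g3 and Sdhd, and in 0.294% of detected genes. TATAAA stood in 7.94% of members, against 5.94% of detected genes and 12.6% of all. Both strands were searched, none of these motifs contains another, and a match is a run of letters and not a bound site.

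In complex V, 16 of 17 members were detected. Atp5s, a coupling factor that is not a structural subunit, was the exception, at 0.84 TPM in replicate 2 against 0.81 TPM in replicate 1, just under the minimum. In the F1 head, Atp5b, the catalytic beta subunit (chromosome 10, 128083273 to 128090391), had the highest mean of all 84 members, at 356 TPM in replicate 2 against 404 TPM in replicate 1, though Uqcr10 of complex III was above it in replicate 2, at 364 TPM. The rank of Atp5b depends on short processed transcripts that count toward the gene. Its protein-coding transcript Atp5b-201 alone was at 257 TPM in replicate 2 against 266 TPM in replicate 1, below Uqcr10 in both libraries. Atp5a1, the alpha subunit, was at 212 TPM in replicate 2 against 223 TPM in replicate 1. Atp5e, the epsilon subunit, was at 167 TPM in replicate 2 against 173 TPM in replicate 1. Alpha and beta, which are present in several copies per enzyme, stood above the gamma subunit of the rotor, Atp5c1, at 80.3 TPM in replicate 2 against 86.6 TPM in replicate 1. Atp5d, the delta subunit of the rotor, was at 77.8 TPM in replicate 2 against 64.9 TPM in replicate 1. The epsilon gene, a single copy subunit like gamma and delta, was at a higher level than those.

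The peripheral stalk and membrane subunits were also high. Of the 4 stalk genes, Atp5o, the OSCP subunit, was the highest at 159 TPM in replicate 2 against 164 TPM in replicate 1, and Atp5j, coupling factor 6, had the lowest mean of the structural complex V genes, at 52.6 TPM in replicate 2 against 62.6 TPM in replicate 1. Atp5h, subunit d, had a mean of 127 TPM and Atp5f1, subunit b, a mean of 78.6 TPM. Of the 4 membrane genes, Atp5k, subunit e, which helps enzymes to form dimers, was at 136 TPM in replicate 2 against 189 TPM in replicate 1. Atp5mpl, a small proteolipid, was at 52.1 TPM in replicate 2 against 65.2 TPM in replicate 1. Atp5l, subunit g, had a mean of 128 TPM, with the near copies noted above, and Atp5j2, subunit f, a mean of 108 TPM.

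All c subunit genes were expressed. Atp5g1, Atp5g2 and Atp5g3 encode proteins of 136, 146 and 141 residues that end in the same 78 residues, a stretch that includes the mature subunit of the c ring. The 234 bases that code for these 78 residues differ at 63 positions, 55 of them at the third base of a codon. The first 120 of these bases are shown because one mature protein has 3 distinguishable messages, and capitals mark the positions where the 3 genes are not all alike.
Atp5g1: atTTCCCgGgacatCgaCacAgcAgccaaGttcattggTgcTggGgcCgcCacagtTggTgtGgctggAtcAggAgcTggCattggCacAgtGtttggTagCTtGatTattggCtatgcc
Atp5g2: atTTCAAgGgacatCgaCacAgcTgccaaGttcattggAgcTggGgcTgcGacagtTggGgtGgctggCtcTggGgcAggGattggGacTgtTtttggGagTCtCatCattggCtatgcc
Atp5g3: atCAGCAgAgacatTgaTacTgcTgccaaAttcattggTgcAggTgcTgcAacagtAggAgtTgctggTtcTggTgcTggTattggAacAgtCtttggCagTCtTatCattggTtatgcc
Atp5g1 was at 204 TPM in replicate 2 against 240.3 TPM in replicate 1, a mean of 49.4% ± 2.29 of the summed TPM of the family. Atp5g2 was at 147 TPM in replicate 2 against 134 TPM in replicate 1, or 31.5% ± 4.27. Atp5g3 was at 75.6 TPM in replicate 2 against 96.6 TPM in replicate 1, or 19.1% ± 1.98. The order was the same in both libraries, and together they reached 427 TPM in replicate 2 against 471 TPM in replicate 1, above Atp5b. With the counts of its copies added, Atp5g2 would reach at most 219 TPM in replicate 2 against 190.4 TPM in replicate 1, which is above Atp5g1 in replicate 2, so the order of the leading pair is uncertain. With the M2 annotation the means of Atp5g1, Atp5g2 and Atp5g3 were 228, 64.3 and 88.6 TPM, against 429 TPM for Atp5b. With M2 the 3 genes together were thus below Atp5b, and Atp5g2 was below Atp5g3.

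Most members used a main transcript, though for some of them M4 lists no other. The 76 detected members have 307 transcripts in the M4 transcript table. Over these members, the main transcript held a median of 96.9% of the gene's TPM, and it held 90% or more in 58 members. Of the 76 members, 22 have only 1 transcript in M4, so the annotation fixes their share. Both the median and the 58 include those 22 members and so rest partly on the annotation. The main transcript was of the protein-coding type in 75 members. The exception was Ndufa5, a matrix arm subunit of complex I, whose highest transcript Ndufa5-204, a processed transcript of 453 bases, held 37.1% in replicate 2 and 38.8% in replicate 1. The protein-coding Ndufa5-201 held 30.9% in replicate 2 and 31.4% in replicate 1, and by expected counts it held the larger share, 58.2% against 29.0% for Ndufa5-204. In 12 members at least 2 transcripts held 10% or more in both libraries. Transcript shares were not taken for genes outside the members, so the median and these counts have no background.

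Ndufv3 has a short and a long protein form, and the short one dominated here. Ndufv3-202, of 485 bases, held 91.2% of Ndufv3 TPM in replicate 2 and 92.2% in replicate 1. Ndufv3-201, of 1537 bases, held 7.60% in replicate 2 and 6.78% in replicate 1. The mean share of Ndufv3-202 was 74.0% by expected counts, which favour the longer transcript. Atp5c1, also known for splicing that differs between tissues, had Atp5c1-203 at 98.3% in replicate 2 and 98.5% in replicate 1. In Sdhc the shorter Sdhc-201 held 59.2% of TPM in replicate 2 and 57.9% in replicate 1, but 26.0% of counts. In Uqcrq, Uqcrq-203 held 68.6% of TPM in replicate 2 and 72.0% in replicate 1, but 30.5% of counts. For both genes the leading transcript therefore depends on whether length is divided out.

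The transcript shares of Ndufb5, Cox5b and Atp5b differed between the libraries by 10 percentage points or more for at least 1 transcript each. Ndufb5-202 held 49.1% in replicate 2 and 41.3% in replicate 1, and Ndufb5-204 held 34.1% in replicate 2 and 48.8% in replicate 1, so the leading transcript of this membrane arm gene was not the same. Cox5b-204, the protein-coding form, held 93.1% in replicate 2 and 78.9% in replicate 1, and Cox5b-205, a processed transcript of 362 bases, held 3.03% in replicate 2 and 17.7% in replicate 1. Atp5b-201, the protein-coding form, held 72.1% in replicate 2 and 65.8% in replicate 1, and Atp5b-206, a processed transcript of 478 bases, held 17.5% in replicate 2 and 28.0% in replicate 1. By counts Atp5b-201 held 92.1%. Ndufs1, Ndufv1, Ndufv2, Ndufc1, Uqcrc2, Atp5g3 and Atp5j2 also had a second transcript at 10% or more in both libraries, with the same transcript leading in each. In Ndufv1 and Ndufc1 that second transcript, Ndufv1-209 and Ndufc1-203, retains an intron, at 24.6% in both libraries and at 28.3% in replicate 2 and 28.0% in replicate 1. All transcript shares are estimates, because a short read often matches several transcripts.

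**Figure D3:**
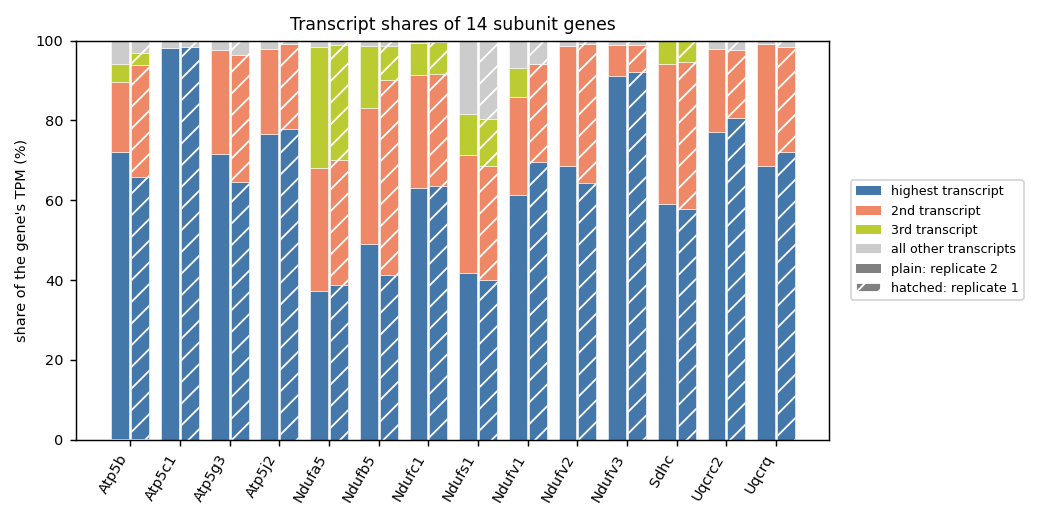
Share of each gene's TPM held by the highest, the second and the third transcript and by all others, in percent, for the 12 members with more than one transcript at 10% or more and for Ndufv3 and Atp5c1; plain bars are replicate 2 and hatched bars replicate 1, and transcripts under 3% count with the others. Ndufa5, Ndufb5 and Ndufs1 have no transcript at 50% in either library.

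Few members differed much between the libraries. The ratio of replicate 2 over replicate 1 was taken from expected counts scaled by TMM, over genes whose mean reached 1 TPM, with a 95% interval for counting error only. At 1.5-fold or more, 1 of 76 members was higher in replicate 2, or 1.32%, against 5.07% of 9843 genes, and 0 were lower, against 2.33%. The SD of the log2 ratio was 0.24 over members and 0.36 over all genes. Neither the 1.5-fold counts nor this SD was set against genes at the members' high levels, so the part of level in these differences was not tested. The median log2 ratio was -0.06 over members and -0.03 over all genes. Of the 76 members 49 were lower in replicate 2, or 64.5%, against 53.6% of all genes. Members are highly expressed, and over the 3575 genes whose mean reached 10 TPM, 64.8% were lower with a median of -0.10, so this direction is near the background of genes at such levels. The replicate SD was a median of 6.30% of the mean TPM, and it was under 10% in 57 members. These small differences still exceeded counting error for many, since the interval left out 0 in 58 members and the deposited credibility bounds of TPM did not overlap in 49. The counts of 57, 58 and 49 members were not taken over all genes, so they have no background.

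The 1 member past 1.5-fold was Cox7a1 (chromosome 7, 30184144 to 30186078), with a log2 ratio of 1.27 (0.69 to 1.89), from the 88 and 34 counts given above. Cox6a2, under a mean of 1 TPM, had a log2 ratio of 2.00 (1.14 to 2.96). Next in that direction were Ndufa6, a complex I subunit of the LYR family, at 0.41 (0.32 to 0.50), Uqcrq at 0.36 (0.26 to 0.45) and Cox6a1 at 0.29 (0.25 to 0.34). Ndufa6 was at 52.9 TPM in replicate 2 against 39.9 TPM in replicate 1. In the other direction were Ndufa5 at -0.52 (-0.61 to -0.42), Atp5k at -0.49 (-0.56 to -0.43), Uqcrb at -0.37 (-0.44 to -0.29) and Atp5g3 at -0.35 (-0.40 to -0.29). Ndufa5 was at 35.8 TPM in replicate 2 against 50.8 TPM in replicate 1, and Uqcrb at 53.5 TPM in replicate 2 against 69.1 TPM in replicate 1. With 1 library on each side, none of these differences has a replicate check.

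By complex, replicate 2 was lower for 14 of the 16 complex V members compared, and their median log2 ratio was -0.09. Atp5d, at 0.28 (0.23 to 0.33), and Atp5g2, at 0.15 (0.11 to 0.19), were the ones that were higher. All 4 single forms of complex IV were lower, with log2 ratios of -0.17 to -0.08. Complex I was nearly even, with 16 of 35 higher and 19 lower and a median of -0.03. Complexes II, III and IV had medians of 0.01, -0.09 and -0.08. The SD of the ratios among members was 0.17 in complexes I and II, 0.24 in complex III, 0.40 in complex IV with Cox7a1, and 0.19 in complex V.

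**Figure D4:**
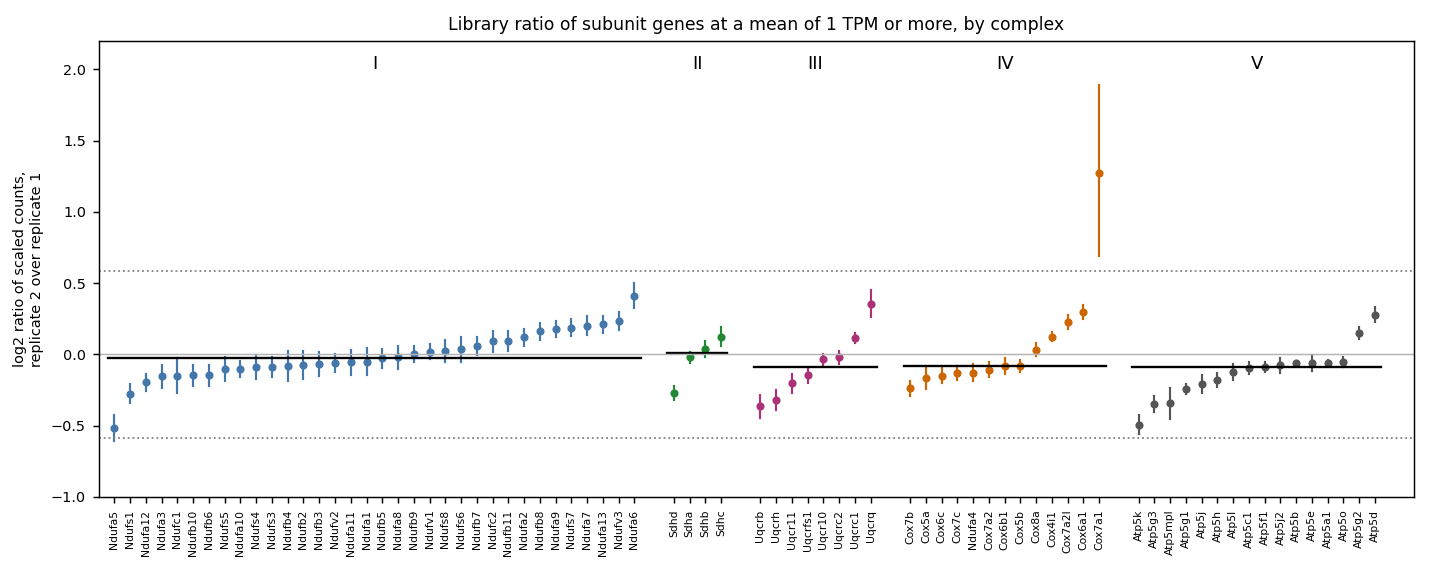
Log2 ratio of scaled counts, replicate 2 over replicate 1, for members whose mean reached 1 TPM, ordered within complexes I to V; lines are 95% counting intervals, black bars are complex medians and dotted lines mark 1.5-fold. Cox7a1 alone lies past a dotted line.

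The subunits that the mitochondrial genome encodes had larger ratios. All 13 were detected, with a median of 124 TPM, and replicate 2 was lower for 10 of them, 6 past 1.5-fold, at a median log2 ratio of -0.58. The highest mean was that of mt-Co1, at 917 TPM in replicate 2 against 810.2 TPM in replicate 1, and the lowest that of mt-Co2, at 4.48 TPM in replicate 2 against 26.4 TPM in replicate 1. In complex IV, the mitochondrial subunits thus ranged from far above to far below the nuclear common forms, and the cause was not tested. Nuclear genes of the same complexes whose symbols the pattern leaves out were also detected. Ndufab1, the acyl carrier protein of complex I, had a mean of 41.2 TPM and Cyc1, cytochrome c1, a mean of 44.5 TPM. Usmg5, a membrane subunit of ATP synthase, was at 38.8 TPM in replicate 2 against 62.0 TPM in replicate 1, a mean of 50.4 TPM. Atpif1, the inhibitor of ATP synthase, had a mean of 66.5 TPM.

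Assembly factors were nearly all detected, with medians below those of the subunits they help to join. All 14 complex I factors were detected, with a median of 7.69 TPM, led by Ndufaf8 at 23.8 TPM and Ndufaf2 at 13.7 TPM, and lowest in Tmem126b at 3.10 TPM and Nubpl, which delivers iron-sulfur clusters, at 2.07 TPM. All 10 factors of complexes II and III were detected, with a median of 5.25 TPM, from Uqcc2, needed for cytochrome b, at 48.8 TPM and Uqcc1 at 13.5 TPM down to Sdhaf1 at 3.23 TPM and Sdhaf3 at 1.44 TPM. Of 22 complex IV factors 21 were detected, and the median over all 22 was 8.37 TPM. Cox17, the copper chaperone, was the highest at 169 TPM in replicate 2 against 155 TPM in replicate 1, within the range of the subunits themselves, followed by Coa3 with a mean of 70.1 TPM. Cox19 was at 2.89 TPM and Pet117 was listed at 0. All 4 complex V factors were detected, with a median of 13.2 TPM, from Fmc1 at 17.2 TPM and Atpaf2 at 13.4 TPM to Tmem70 at 12.9 TPM and Atpaf1 at 5.10 TPM.

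Of 16 electron carrier, ubiquinone and supercomplex genes, 13 were detected, and the median over all 16 was 10.02 TPM. Coq8a, a regulator of ubiquinone synthesis, had a mean of 22.0 TPM and Higd2a, a supercomplex factor, a mean of 19.4 TPM, while Coq10a had a mean of 0.920 TPM and Cyct, the testis cytochrome c, was listed at 0 in both libraries. Cycs, the somatic cytochrome c, stood at 11.1 TPM in replicate 2 against 19.2 TPM in replicate 1, with a log2 ratio of -0.80. All 18 pyruvate dehydrogenase and citric acid cycle genes were at 10 TPM or more in each library, with a median of 25.0 TPM. Idh3g was the highest, at 49.3 TPM, and Sucla2 and Dlat the lowest, at 13.5 and 12 TPM. Between the libraries 8 of these 18 were higher and 10 lower in replicate 2, and 0 passed 1.5-fold.

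Of 13 transcriptional regulators of mitochondrial genes, 11 were detected, and the median over all 13 was 6.11 TPM. Tfam, which packages and transcribes the mitochondrial genome, was at 12.5 TPM in replicate 2 against 17.0 TPM in replicate 1. Nrf1, which binds the promoters of many subunit genes, was at 12.6 TPM in replicate 2 against 14.04 TPM in replicate 1. Of the PGC-1 coactivators, Ppargc1a was listed at 0 TPM in both libraries and Ppargc1b was at 0.46 TPM in replicate 2 against 0.52 TPM in replicate 1. Pprc1, the third of that family, was at 5.39 TPM in replicate 2 against 6.55 TPM in replicate 1. Of the 11 detected regulators 2 were higher and 9 lower in replicate 2, with 0 past 1.5-fold.

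**Figure D5:**
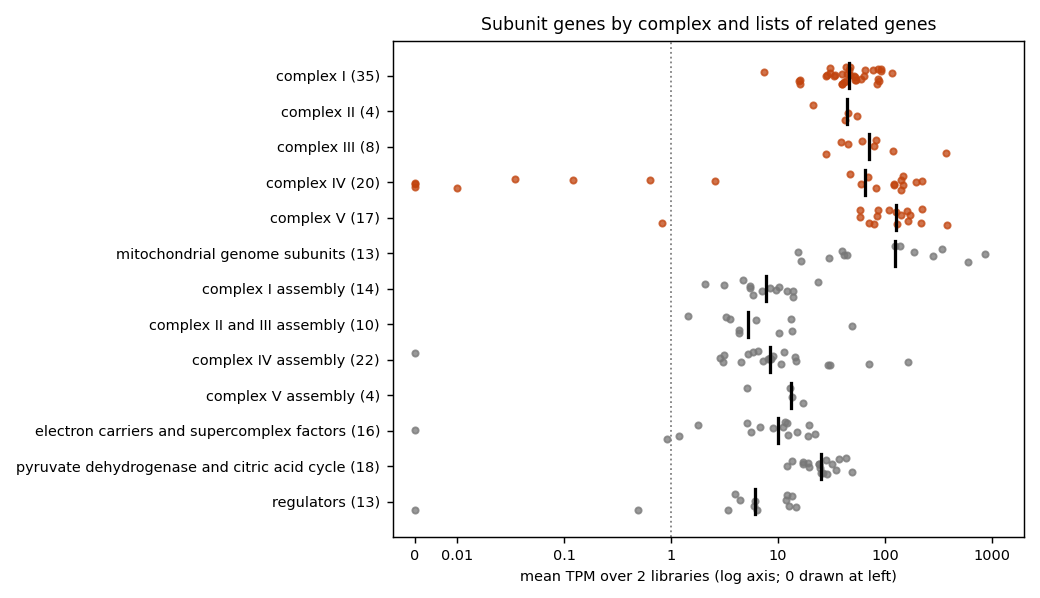
Mean TPM over both libraries on a log axis for members by complex (upper rows) and for genes of related lists (lower rows), with the number of genes in parentheses; black bars are medians, the dotted line is 1 TPM and values of 0 are drawn at the left. Medians of complexes I to V lie at 43.5 TPM or more, those of the assembly factor lists at 13.2 TPM or less.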

How the data were processed

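Per the labels and each library's manifest, the assembly was mm10, and genes were quantified with annotations M2, M3 and M4 and transcripts with M4. The sources used here name no aligner, quantifier or version. The deposited tables give expected counts, TPM and FPKM for each gene and transcript, as named in the file headers. A deposited percent column gives each transcript as a share of its gene. Other deposited columns hold lengths, posterior mean TPM and the bounds of its credibility interval.

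The M4 table was used, with symbols, types and coordinates from GENCODE M21, which matched 42462 of 43346 genes on the identifier without version. The 26345 rows that name no gene (numeric and spike-in entries) held 5.36e-05% of counts in replicate 2 and 5.68e-05% in replicate 1 and were left out. Counts were scaled by TMM (edgeR 4.0.16, R 4.3.3). They were rounded for the scale factors and the intervals, while the ratios used unrounded expected counts. Ratios have exact conditional binomial 95% intervals. That step was tested on simulated counts with counting error only, which is the error the intervals assume. Other spread between libraries was not simulated, so the test cannot show how the intervals fare with it. With 1 library a side, no count test was run. Near copies were found with BLAST 2.17.0, and promoters are from RefSeq (GRCm38.p6). Other steps used Python 3.11.15, numpy 2.4.6, pandas 2.3.3, scipy 1.17.1, biopython 1.88 and matplotlib 3.10.9.

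The members, lists and markers were chosen with earlier results of these data known. All members could be named, though some genes that these rules take are not reported here. Of the other lists the 2 highest and 2 lowest genes were named, and Cycs, Pprc1, Actn2, Mb, Myl1 and Tnnt3 were added after their values were seen. Intervals and floors (3 counts) cover counting error only. Alternatives were other releases, minima, scalings (DESeq2 1.42.0 size factors among them), pseudocounts, and each library left out.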

Additional observations from a re-analysis of the deposited data

How the results depend on the processing

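Detection of members held under every alternative tried, from 75 members at a minimum of 5 TPM to 78 with TPM rescaled to protein-coding genes. The median member stood at 52.8 TPM without replicate 1 and 60.2 TPM without replicate 2, and at 50.9 TPM with counts over full length. With M2 the complex medians were 45.7 TPM (complex I), 44.5 TPM (II), 65.9 TPM (IV) and 112 TPM (V). With M3 they were 45.5, 44.5 and 65.8 TPM for complexes I, II and IV. By posterior mean TPM complex I was at 46.2 TPM, and leaving out a library gave 44.8 to 45.0 TPM. Over full length, complexes I to V were at 42.5, 47.7, 59.8, 66.3 and 107 TPM, so complex II passed complex I and complex IV passed complex III there. Complex IV was at 122 TPM over detected members only, and with the Cox7a family left out the restricted share was 0.0893%. The full-length, detected-only per complex, added-copy and Cox7a settings were chosen after seeing the data. For M2, Atp5g2 had 2039 counts in replicate 2 and 1985 in replicate 1, against 10042 and 8457 with M4, and Ndufc1 had a mean of 13.0 TPM with M2 and 53.5 TPM with M4, at nearly the same counts and a length of 897 against 332 bases. Cox5b was at 188 TPM with M2. These were the 3 of 76 detected members that moved by 1.5-fold or more between M2 and M4, and 2 did between M3 and M4. The share of all genes that moved between releases was not taken, so these counts have no background.

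Members past 1.5-fold numbered 2 when scaled by total (Cox7a1 and Ndufa5), 3 with no TPM minimum (Cox7a1, Cox6a2 and Ndufa4l2) and 0 at a mean of 10 TPM or more, which leaves Cox7a1 out. These settings covered 9843, 15411 and 3575 genes in that order. The share of all genes past 1.5-fold was not taken for them, so these counts have no background. Scaling by total moved the median log2 ratio to -0.14 for members and -0.11 for all genes, a shift common to both. The main transcript held a median of 98.0% by expected counts, again including the 22 members with only 1 transcript in M4. No paired analysis was possible because there is a single group. Depth limits the restricted forms, whose levels rest on 0 to 88 counts.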
